A study of Danio rerio with 20 samples.

Results

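A targeted stretch of zebrafish chromosome 18 was examined CpG by CpG in gonads from fish exposed to LPS as larvae and from controls. The stretch ran over 443 bp, chr18:39636122-39636564 on the GRCz11 build, and its CpGs were taken by position and depth. A CpG was kept where at least 4 of the 5 samples of each group had 10 or more reads there. This gave 18 CpGs of the 135 that met the same depth rule in the whole data set. Another 31 positions in the stretch were recorded too sparsely to qualify.

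The data were bisulfite sequencing of amplified DNA from 20 gonad samples of AB strain zebrafish aged 90 days, read on an Illumina MiSeq. The 4 groups of 5 samples each were 3H LPS, 3H control, 6H LPS and 6H control. LPS, lipopolysaccharide, makes up much of the outer surface of Gram-negative bacteria, here of Pseudomonas aeruginosa, and was given at the larval stage, after which the fish grew to the age of sampling. The labels do not say what 3H and 6H stand for, how much LPS was given, which sex each gonad was, or whether each sample is a separate fish. The p-values below thus set differences against the sample-to-sample spread alone, part of which may be technical. Amplicon methylation holds no marker by which the labelled tissue could be checked.

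In vertebrates most cytosines that precede a guanine carry a methyl group, while clusters of unmethylated CpGs are common at the starts of genes. Methyltransferases of the Dnmt3 family place new methyl groups, and Dnmt1 copies the pattern to the new strand after DNA replication. Bisulfite changes an unmethylated cytosine so that it is read as thymine and leaves a methylated one as cytosine, so the methylation level of a CpG is the percent of its reads that kept the cytosine. The method does not separate methylation from hydroxymethylation. No gene is assigned to the stretch here.

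The 18 CpGs fell into 2 kinds. At 15 of them, from 39636145 to 39636529, every sample had at least 190 reads, and the median over samples was about the same at each CpG, for example 9846 reads at 39636145 and 9854.5 reads at 39636529. Within a sample, the range of reads over these 15 CpGs was 0.161% to 0.849% of the highest count among them. They held 99.917% of all reads in the stretch, 3159442 calls over the 20 samples. The other 3 CpGs, at 39636122, 39636133 and 39636564, lay outside the deeply read CpGs on either side, with medians of 37.5, 20.5 and 32.0 reads per sample. Total calls over all targets ranged from 419055 to 2046055 per sample. Intervals given below cover counting error only, because reads of an amplified product without molecular identifiers are not independent molecules.

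**Figure D1:**
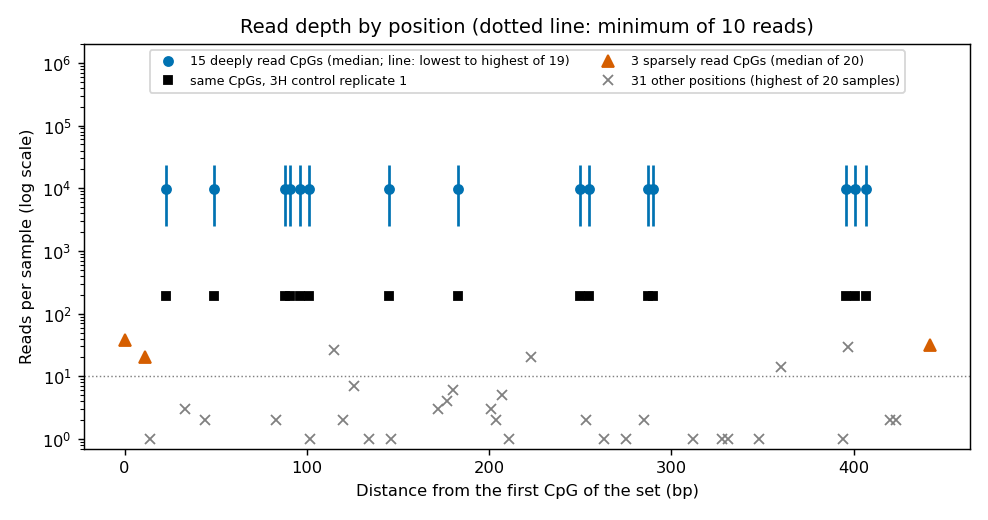
Reads per sample on a log axis against the distance in bp from the first CpG of the set. Circles give the median of 20 samples at the 15 deeply read CpGs, and lines the range of the 19 without 3H control replicate 1. Squares are the same CpGs in 3H control replicate 1. Triangles give the median of 20 samples at the 3 sparsely read CpGs, and crosses the highest count of any sample at the 31 other positions. The deeply read CpGs lie at one depth of 2464 to 23427 reads in the 19 samples and at 190 or 191 reads in 3H control replicate 1, and 4 of the crosses lie above the minimum of 10 reads.

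Replicate 1 of the 3H controls stood apart from the other 19 samples. It had a median of 191 reads over the 15 CpGs, against 2476 to 23411 in the others, so that the next lowest sample had 12.96 times as many. The stretch took 0.154% of that sample's calls, against 4.10% to 37.6% in the others, while its total of 1858242 calls was not low. Its methylation was also above that of all 19 others at all 15 CpGs, by 5.05 to 18.96 percentage points over their mean. The share of unmethylated reads there was 0.0811 to 0.383 times the mean share of the others. At 13 of the 15 CpGs the lower bound of its exact 95% binomial (Clopper-Pearson) interval lay above every other sample. Elsewhere it was not set apart in this way. In the chromosome 10 amplicon it had 56.9% methylation with 12206 reads, within the range of 55.7% to 70.3% of the other 19, although below the other 3H controls (61.8% to 69.6%). In the chromosome 19 amplicon it had 75.5% with 7217 reads, again within the range of the other 19. Of the 8 amplicons, the only other in which it lay outside that range was the nearly unmethylated second one on chromosome 5, at 0.762% against a highest value of 0.740%. Low depth and high methylation came together in this sample, and the part of the depth in the methylation was not tested. Group differences that include it are also given without it. The edgeR and limma results and the shares over all 135 CpGs are given with all 20 samples unless stated.

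Along the stretch, all 15 deeply read CpGs were highly methylated, and the level changed with position. The means of the 19 samples ranged from 74.8% at 39636305 to 93.5% at 39636518. The first 8 CpGs, from 39636145 to 39636305, were lower than the last 7, from 39636372 to 39636529. This division was made after the values were seen and is a description. The first 8 averaged 79.9% ± 1.10 and the last 7 averaged 90.4% ± 1.03 (SD, n = 19 samples). The last 7 were higher than the first 8 in every one of the 20 samples, by 9.13 to 12.7 percentage points in the 19 and by 2.23 points in 3H control replicate 1.

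Within the first 8 CpGs the level did not follow distance evenly. The outermost one, 39636145, averaged 83.4% ± 1.48 (SD, n = 19 here and for the following CpGs), and 39636171, 26 bp on, averaged 77.0% ± 1.35. Next came a cluster of 4 CpGs within a few bases of each other. In it, 39636210, 39636213 and 39636218 averaged 78.6% ± 1.31, 79.2% ± 1.15 and 77.0% ± 1.5, and 39636223, 5 bp further on, averaged 82.1% ± 1.59. These SDs are between samples and do not measure differences between CpGs read in the same samples. The next CpG, 39636267, was the highest of the first 8 at 87.2% ± 1.17. The one after it, 39636305, was the lowest of all 15 at 74.8% ± 1.78, so a gap of 38 bp separated the highest and lowest values of the first 8.

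The last 7 CpGs lay closer together in level. The pair at 39636372 and 39636377 averaged 90.6% ± 1.35 and 91.8% ± 1.23, and the pair at 39636409 and 39636412, 3 bp apart, averaged 89.8% ± 1.35 and 88.1% ± 1.61. In the final group of 3, 39636518 was the highest CpG of the stretch at 93.5% ± 1.05. Its neighbour 5 bp on, 39636523, was lower at 87.6% ± 1.59, and 39636529, another 6 bp on, averaged 91.4% ± 1.08. A drop of this kind over a few bases stood in every sample: 39636523 was the lower of the pair with 39636518 in each of the 20.

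**Figure D2:**
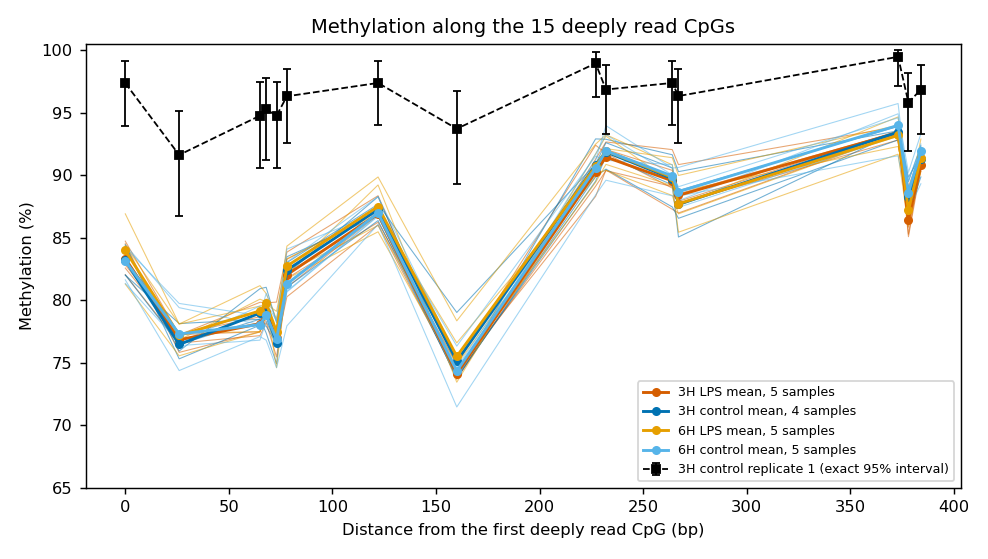
Methylation in percent against the distance in bp from the first deeply read CpG. Thick lines are the means of 3H LPS, 3H control without replicate 1, 6H LPS and 6H control, thin lines are the 19 samples, and squares are 3H control replicate 1 with exact 95% binomial intervals. The 4 group means follow one profile, lowest at 39636305 and highest at 39636518, and replicate 1 of the 3H controls runs above it between 91.6% and 99.5%.

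The extremes of the profile were found in the same places in all 4 groups. At 39636305, 3H LPS samples had 73.7%, 74.9%, 74.0%, 73.7% and 74.4%, and 3H controls had 93.7%, 79.0%, 73.9%, 73.8% and 73.8%. At the same CpG, 6H LPS samples had 78.4%, 74.3%, 74.8%, 73.4% and 76.6%, and 6H controls had 73.8%, 71.5%, 76.3%, 75.5% and 74.6%. Apart from 3H control replicate 1, the groups overlapped, and the highest value was that of 3H control replicate 2. At 39636518, 3H LPS samples had 93.9%, 93.5%, 92.8%, 93.6% and 93.3%, and 3H controls had 99.5%, 93.9%, 93.5%, 92.8% and 93.6%. At that CpG, 6H LPS samples had 94.7%, 91.7%, 93.3%, 92.3% and 94.0%, and 6H controls had 94.6%, 91.6%, 94.9%, 93.1% and 95.7%. These groups overlapped as well, and both 6H groups reached lower and higher than the 3H groups once 3H control replicate 1 was set aside. The gap between the 2 extremes was 19.3 percentage points in the 3H LPS mean, 15.8 in the 3H control mean (18.3 without replicate 1), 17.7 in the 6H LPS mean and 19.6 in the 6H control mean. Across the 15 CpGs the group means followed each other closely, with Pearson's r between 0.993 and 0.998 for the pairs of groups, with and without that replicate. This describes likeness across CpGs that share reads and carries no test.

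The samples differed by more than counting error. Within groups and without 3H control replicate 1, the SD between samples was 1.09 to 1.83 percentage points per CpG, while counting error alone at these depths gives 0.282 to 0.501 points. The observed SD was 2.52 to 4.48 times the counting SD, with a median of 3.68 over the 15 CpGs. The ratio was lowest at 39636213 and highest at 39636412. Group differences below have to be read against this spread between samples rather than against the read counts.

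The 3 sparsely read CpGs stood in contrast to the rest of the stretch, with almost no methylated reads. At 39636122, 23 bp before the first deeply read CpG, 0 of 753 reads were methylated over all samples, which allows a share of up to 0.398%. At 39636133, 12 bp before it, 0 of 483 reads were methylated, which allows up to 0.621%. At 39636564, 35 bp after the last deeply read CpG, 1 of 721 reads was methylated, a share of 0.139%, and that read came from 6H LPS replicate 4. Their reads amounted to 0.357%, 0.229% and 0.342% of those at a single deeply read CpG, taken as the median of the deeply read CpGs in each sample. The methylated shares above thus describe only the few reads with a call at these positions, although deeply read CpGs lay 12 to 35 bp away. The highest count in any sample was 84 at 39636122, 57 at 39636133 and 83 at 39636564. They met the depth minimum in 18 samples each. Under 10 reads were recorded in 3H control replicate 1 (2, 0 and 1 reads) and in 6H control replicate 1 (9, 9 and 8 reads), and these values were left out of the fits. The tables do not give the strand or the read of a call, so whether these sparse calls come from the same molecules as the deep ones was not tested.

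The 31 positions that did not qualify had the same character. Together they held 674 reads in all samples, of which 6 were methylated, and 28 of the 31 had no methylated read. Of the 31, 16 had 5 reads or fewer over the whole study and 27 never reached 10 reads in any sample. The most often read was 39636345 with 180 reads, none methylated. It reached 10 reads in 9 samples, against 18 samples for each of the 3 sparse CpGs that qualified. It was followed by 39636237 with 99, none methylated, and 39636482 with 98, of which 1 was methylated. Another 3 lay 1 base after a deeply read CpG, the place of the cytosine on the opposite strand, and held 56 reads in all. Of these, 39636519 had 47 reads, 1 of them methylated, with 29 of the 47 in 6H LPS replicate 3. The deeply read 39636518, 1 base before it, averaged 93.5% over the 19 samples. The calls at these adjacent bases thus differed widely, and why was not tested. At 39636268, 4 of 5 reads were methylated, each from a different sample. At 39636224 there were 4 reads, none methylated.

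To ask whether LPS exposure changed the stretch as a whole, each sample was given the unweighted mean methylation of its 15 deeply read CpGs. In the 3H set this value was 85.5%, 84.8%, 84.1%, 84.1% and 84.1% in LPS samples, against 96.2%, 85.9%, 84.1%, 84.1% and 85.1% in controls. The LPS samples lay within the range of the controls except for 2 that lay just under the lowest control, which had 84.11%; the lowest LPS sample had 84.06%. In the 6H set it was 86.5%, 83.6%, 84.2%, 85.2% and 85.6% in LPS samples, against 84.9%, 82.9%, 85.8%, 85.3% and 85.2% in controls. These groups overlapped over most of their range, and LPS replicate 1 was the highest and control replicate 2 the lowest of the 19 samples.

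**Figure D3:**
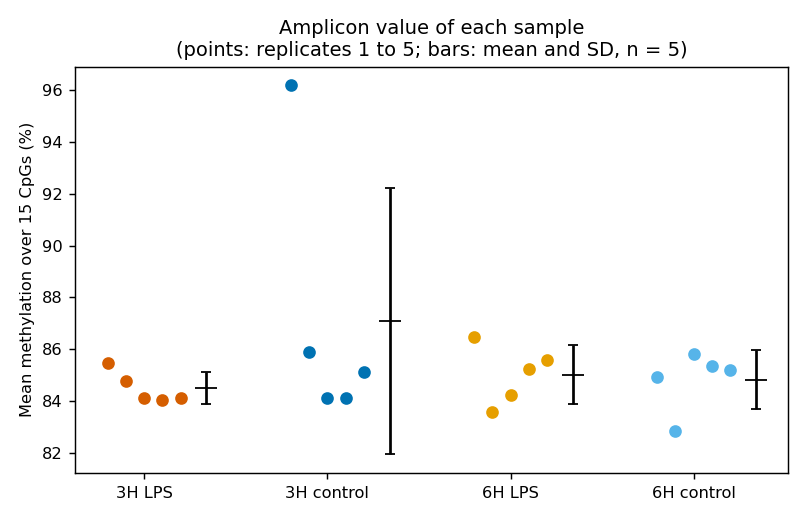
Mean methylation in percent over the 15 deeply read CpGs in each sample, by group; points are replicates 1 to 5 from left to right, and bars are the mean and SD (n = 5). The axis does not start at 0. All samples lie between 82.85% and 86.48% except 3H control replicate 1 at 96.2%.

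In the 3H set the LPS mean was 84.5% ± 0.617 and the control mean 87.1% ± 5.14 (SD, n = 5 each). The difference, LPS minus control, was -2.57 percentage points with a 95% interval of -6.96 to 0.670, and a two-sided exact permutation test gave p = 0.270, adjusted p = 0.432 over the 8 amplicons. In this comparison 25.0% of the amplicons passed an adjusted p of 0.05, and this one did not. Without control replicate 1 the control mean was 84.8% ± 0.857 (SD, n = 4), and the difference shrank to -0.298 points (interval -1.59 to 1.01, exact permutation p = 0.548, adjusted p = 0.653). Intervals come from inverting the permutation test. The smallest p that 5 samples against 5 allow is 0.00794.

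In the 6H set the LPS mean was 85.0% ± 1.14 and the control mean 84.8% ± 1.15 (SD, n = 5 each). The difference was 0.190 points with an interval of -1.60 to 1.95 (exact permutation p = 0.810, adjusted p = 0.925), and 0.0% of the 8 amplicons passed. The interval thus reaches a little under 2 points on the upper side and less far on the lower side. The difference between the LPS effects, 6H minus 3H, was 2.76 points (permutation p = 0.275, adjusted p = 0.520, 25.0% of amplicons called) and 0.489 points without 3H control replicate 1 (adjusted p = 0.787). Over both sets the LPS minus control difference was -1.19 points (permutation p = 0.463, adjusted p = 0.805, 0.0% of amplicons called) and -0.0540 points without that replicate.

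The 6H and 3H sets were compared in the same way. Among LPS samples the 6H mean of 85.0% ± 1.14 was 0.508 points above the 3H mean of 84.5% ± 0.617 (SD, n = 5 each), with an interval of -0.886 to 1.91 (exact permutation p = 0.413, adjusted p = 0.741, 0.0% of amplicons called). Among controls the 6H mean was 84.8% ± 1.15 and the 3H mean 87.1% ± 5.14 (SD, n = 5 each). That difference was -2.26 points with an interval of -7.14 to 1.23 (exact permutation p = 0.524, adjusted p = 0.976, 25.0% of amplicons called). Without 3H control replicate 1 it was 0.0193 points, with an interval of -1.74 to 1.47. These comparisons share samples with the LPS comparisons above.

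The single CpGs were tested on their methylated and unmethylated counts with edgeR's quasi-likelihood test, fitted to all 135 CpGs and Benjamini-Hochberg adjusted over them. This fit, and the limma fit given as an alternative, took all 20 samples. Replicate 1 of the 3H controls thus entered the estimate of spread in every comparison, also where its group was not compared. For LPS minus control in the 3H set, 0 of the 18 CpGs passed an adjusted p of 0.05, where the share called over all 135 was 0.0%. The 3 sparsely read CpGs among the 18 held 1 methylated read in all. They could hardly pass here or in the comparisons below, so these counts bear mainly on the 15 deeply read CpGs. At an unadjusted p under 0.05, edgeR gave 0 of the 18, beside 10.4% of all 135, and limma gave 1, beside 12.6%. After adjustment limma also called 0. All 15 deeply read CpGs were lower in LPS, with a median difference of -2.66 points, but without control replicate 1 only 10 were lower and 5 higher, with a median of -0.364 points. The median log2 odds difference was -0.34 over the 15 and -0.22 over all 135, of which 22.2% were higher in LPS by the fitted log2 odds. Here and below, directions of the 15 go by group means in points, which is another measure. Fitted log2 odds also carry a sign at CpGs without a methylated read in the groups compared, such as -1.18 at 39636122. The shares over all 135 include such CpGs and are no like-for-like match to the counts of the 15.

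The smallest p in the 3H set was at 39636523. Methylation there was 85.3%, 89.1%, 85.8%, 85.1% and 87.0% in LPS samples, against 95.8%, 89.9%, 87.0%, 86.9% and 89.5% in controls. The groups overlapped, since 2 LPS samples lay above 2 of the controls. The difference was -3.34 points (edgeR adjusted p = 0.443), and -1.84 points without control replicate 1. The largest difference was at 39636305, -4.71 points (edgeR adjusted p = 0.751), and it shrank to -0.996 points without that replicate.

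For LPS minus control in the 6H set, 0 of the 18 CpGs passed in edgeR, beside 0.741% of all 135. Neither edgeR nor limma gave any of the 18 an unadjusted p under 0.05, beside 7.41% of all 135 by each. Of the 15 deeply read CpGs, 9 were higher and 6 lower in LPS by group means, with a median difference of 0.156 points. Among the 9, 39636377 was higher by only 0.00298 points and had a fitted log2 odds difference of -0.0116. The median log2 odds difference was 0.03 over the 15, against 0.11 over all 135, of which 66.7% were higher in LPS by the fitted log2 odds. The largest difference was at 39636223. It had 84.3%, 81.7%, 82.2%, 82.1% and 83.3% in LPS samples, against 80.7%, 78.0%, 84.1%, 83.1% and 80.7% in controls. The groups overlapped, with 1 LPS sample above the highest control and 3 controls below the lowest LPS sample, and the difference was 1.43 points. The smallest p of the 18 belonged to the sparsely read 39636564 (edgeR adjusted p = 0.977) and rested on its single methylated read. At 39636523 the difference was -1.41 points, with 87.7%, 85.9%, 86.3%, 88.8% and 87.2% in LPS samples, against 89.6%, 87.2%, 90.2%, 87.3% and 88.7% in controls.

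**Figure D4:**
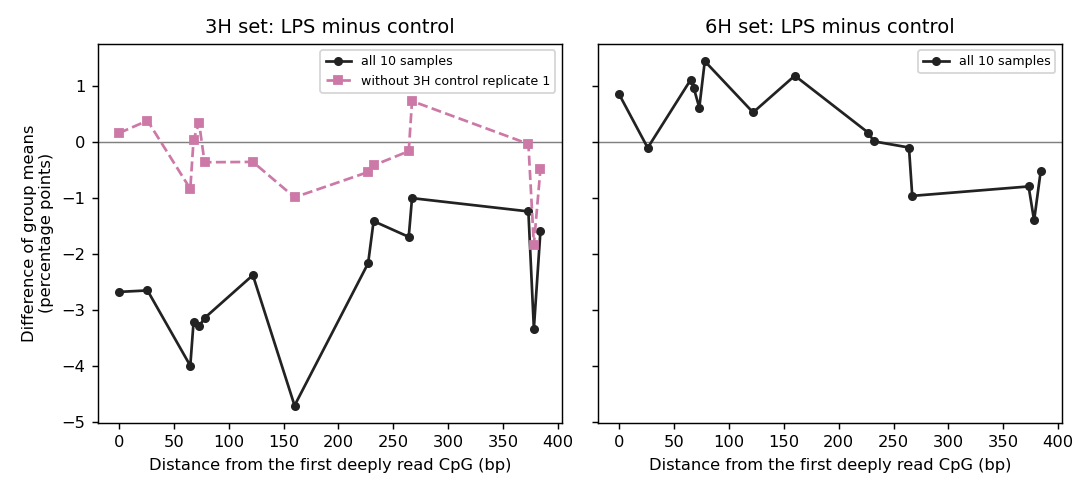
Difference of group means, LPS minus control, in percentage points at the 15 deeply read CpGs, against the distance in bp from the first of them, in the 3H set (left) and the 6H set (right). Squares leave out 3H control replicate 1. In the 3H set the differences with all 10 samples run from -4.71 to -1.01 points, and those without that replicate from -1.84 to 0.722 points. In the 6H set they run from -1.41 to 1.43 points.

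Over both sets, 0 of the 18 CpGs passed in edgeR for LPS minus control, beside 0.741% of all 135, and neither edgeR nor limma gave any of them an unadjusted p under 0.05, beside 4.44% of all 135 by each. The smallest p was again at 39636523, with a difference of -2.38 points, or -1.62 points without 3H control replicate 1 (edgeR adjusted p = 0.816 with all samples). All 15 deeply read CpGs were lower in LPS with all samples, with a median of -1.03 points, while 43.0% of all 135 were higher by the fitted log2 odds. Without that replicate 7 were lower and 8 higher, with a median of 0.0778 points. For the LPS effect in 6H minus that in 3H, 0 of the 18 passed in edgeR, beside 0.741% of all 135. At an unadjusted p under 0.05 there were 0 of the 18 by edgeR, beside 11.1% of all 135, and 0 by limma, beside 11.9%. The largest value was 5.89 points at 39636305 (2.17 without 3H control replicate 1), and the smallest p was at 39636210 (5.10 points, 1.94 without it, edgeR adjusted p = 0.794). All 15 deeply read CpGs had a positive value, as did 77.8% of all 135 by the fitted log2 odds. The median over the 15 was 2.55 points. Without that replicate 11 were positive and 4 negative, with a median of 0.429 points.

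For 6H minus 3H in controls, 0 of the 18 passed in edgeR, beside 0.0% of all 135, and 0 had an unadjusted p under 0.05 by edgeR or limma, beside 8.89% of all 135 by each. All 15 deeply read CpGs were lower in 6H, by a median of 2.19 points, whereas without 3H control replicate 1 there were 8 higher and 7 lower, with a median of 0.0713 points. Of all 135, 32.6% were higher in 6H by the fitted log2 odds with all samples. The largest difference was -4.50 points at 39636305, or -0.785 points without that replicate, and the smallest p was at 39636210 (-4.08 points, -0.923 without that replicate, edgeR adjusted p = 0.775 with all samples). For 6H minus 3H in LPS samples, 0 of the 18 passed in edgeR, beside 0.0% of all 135. The group means compared there do not include 3H control replicate 1, but the edgeR and limma fits do. At an unadjusted p under 0.05 there were 0 of the 18 by edgeR, beside 9.63% of all 135, and 0 by limma, beside 8.89%. Of the 15 CpGs, 13 were higher in 6H and 2 lower, with a median difference of 0.572 points. Of all 135 CpGs 80.0% were higher in 6H by the fitted log2 odds, with a median log2 odds difference of 0.13, against 0.07 for the 15. The largest was 1.39 points at 39636305. The smallest p was at the sparsely read 39636564 (edgeR adjusted p = 0.986), on its single methylated read. The deeply read CpGs share reads, so their counts in each direction are not independent.

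Neighbouring CpGs varied together across samples, though to a degree that depended on 3H control replicate 1. The 15 deeply read CpGs form 14 neighbouring pairs, 3 to 106 bp apart. Over all 20 samples Pearson's r was 0.774 to 0.965, with a median of 0.884. All 14 pairs passed an adjusted p of 0.05 in permutation tests of r, and 11 did so by Spearman's rho. These values rested in part on the replicate that stood apart. Over the other 19 samples r was 0.285 to 0.751, with a median of 0.565, and 8 of the 14 pairs passed by r and 9 by rho. Taking deviations from the group means changed the median to 0.545, again with 8 pairs passing. Leaving out in each pair the 2 further samples farthest from the median gave r between 0.200 and 0.715, with a median of 0.474. This step narrows the range and can lower r by itself. No r was computed within a single group, since each holds 5 samples. Neighbouring CpGs share reads of one amplified product, and whether a technical source made them vary together was not tested.

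The pair with the highest r was 39636372 and 39636377, 5 bp apart. Over 19 samples r was 0.751 (permutation p = 0.00028, adjusted p = 0.00387 over 14 pairs) and rho 0.761 (permutation p = 0.00025, adjusted p = 0.0035). It held at r = 0.715 without the 2 farthest samples. The pair with the lowest r was 39636171 and 39636210, 39 bp apart, with r = 0.285 (permutation p = 0.236, adjusted p = 0.236) and rho 0.444 (permutation p = 0.0584, adjusted p = 0.0744). The pair that joins the first 8 to the last 7 CpGs, 39636305 and 39636372, lay 67 bp apart and had r = 0.332 (permutation p = 0.167) and the lowest rho of the 14, 0.125 (permutation p = 0.612). The widest gap, 106 bp from 39636412 to 39636518, had r = 0.458 (permutation p = 0.0482, adjusted p = 0.0750). Pairs of the same spacing gave different values of r, and whether these differ beyond the spread that 19 samples allow was not tested. The neighbours 39636518 and 39636523 are 5 bp apart and had r = 0.424, against 0.671 and 0.699 for the pairs of that spacing at 39636213 with 39636218 and at 39636218 with 39636223.

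**Figure D5:**
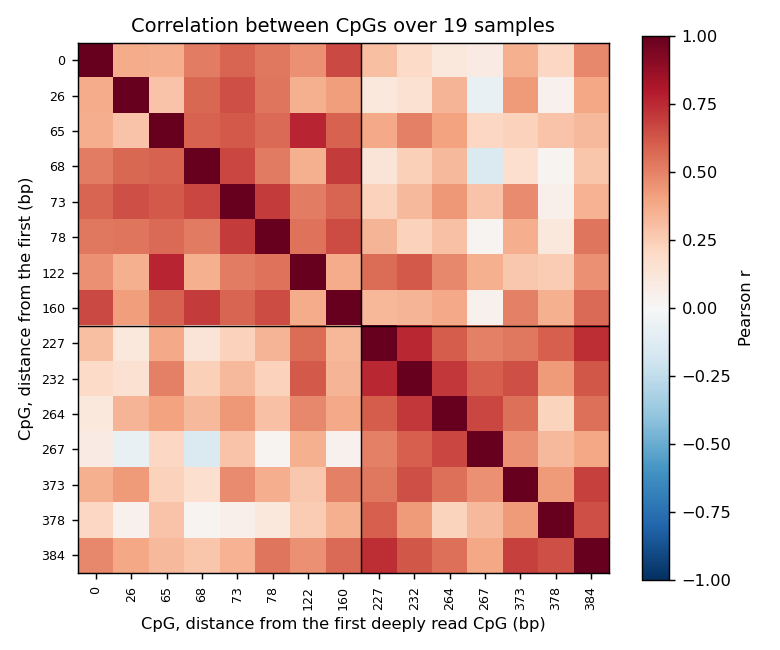
Pearson's r over 19 samples (without 3H control replicate 1) between the methylation levels of each pair of the 15 deeply read CpGs, labelled by distance in bp from the first; lines divide the first 8 from the last 7. The 2 diagonal blocks have medians of 0.555 and 0.596, and the block between them has a median of 0.311.

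All 105 pairs of deeply read CpGs are described without a test, because the CpGs share samples and reads. The median r over 19 samples was 0.403. It was 0.555 for the 28 pairs within the first 8 CpGs, 0.596 for the 21 pairs within the last 7 and 0.311 for the 56 pairs with 1 CpG in each. Not every CpG followed this division. For 39636267, one of the first 8, r ran from 0.354 (39636213) to 0.758 (39636210) within the first 8. With the last 7 it ran from 0.254 (39636523) to 0.614 (39636377). By distance the median was 0.641 for the 9 pairs at most 10 bp apart, 0.542 for the 27 pairs 11 to 100 bp apart, 0.394 for the 36 pairs over 100 and up to 200 bp apart and 0.274 for the 33 pairs over 200 bp apart. Among pairs over 100 and up to 200 bp apart, the 15 on one side of the division had a median of 0.524 and the 21 across it a median of 0.324, while all pairs over 200 bp apart lay across it. The highest r was not between neighbours but between 39636210 and 39636267, 57 bp apart, at 0.758. The lowest was between 39636213 and 39636412, 199 bp apart, at -0.142, and 2 of the 105 pairs were below 0.

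The relation between the means of the first 8 and the last 7 CpGs rested in part on 3H control replicate 1. Over all 20 samples r was 0.876 (permutation p = 0.00121) and rho 0.385 (permutation p = 0.0924). Over 19 samples r was 0.452 (permutation p = 0.0510, adjusted p = 0.153 over 3 relations) and rho 0.282 (permutation p = 0.241). Dropping the 2 samples farthest from the median left r = 0.274, although this narrows the range and can lower r by itself. No relation of depth to level passed the test in the same samples. The log10 of the reads and the mean methylation of the 15 CpGs gave r = -0.0477 (permutation p = 0.845) and rho = 0.147 (permutation p = 0.545) over the 19, and r = 0.304 without the 2 samples farthest in depth. With all 20 samples r was -0.772 (permutation p = 0.0204) while rho was -0.0165, so that relation rested on 3H control replicate 1. The share of a sample's calls that fell in the stretch gave r = -0.108 (permutation p = 0.660) and rho = -0.0754 (permutation p = 0.761) over the 19, and r = -0.368 (permutation p = 0.113) over all 20.

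The 2 other highly methylated amplicons, on chromosomes 10 and 19, were set beside the chromosome 18 stretch. Its mean over the 20 samples was 85.4% ± 2.70, against 61.8% ± 4.05 for the 9 CpGs of chr10:44956550-44956872 and 74.5% ± 0.896 for the 7 CpGs of chr19:27019198-27019584 (SD, n = 20). It was higher than the chromosome 10 amplicon in 20 of 20 samples, by 14.6 to 39.3 points and by 23.5 on average, and by 14.6 to 28.5 points and 22.7 on average without 3H control replicate 1. It was higher than the chromosome 19 amplicon in 20 of 20 samples, by 8.13 to 20.7 points and by 10.9 on average, and by 8.13 to 13.0 points and 10.3 on average without that replicate. Both differences gave p = 1e-05 in a paired permutation test with 100000 resamples, the smallest value it can give. That test sets the differences against the spread between samples only. Whether amplification favoured methylated or unmethylated copies to a different degree in each amplicon was not tested. Without 3H control replicate 1 the chromosome 18 stretch averaged 84.8% ± 0.909 (SD, n = 19), a spread close to that of the chromosome 19 amplicon (0.890) and below that of the chromosome 10 amplicon (3.98).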

How the data were processed

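Per the labels' protocols, gonad DNA was bisulfite converted, amplified and sequenced in 20 samples. Per the submitters' processing notes, the tools were Bismark 16.0, Bowtie2, FastQC 0.11.6 and Trim Galore 0.4.5, with the GRCz11 build. The deposited tables give, for each position and sample, a percent of methylated reads beside 2 counts, of methylated reads and of unmethylated ones. The percent equalled the value recomputed from the counts in all 4504 records.

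Samples were grouped by their titles. CpGs with 10 or more reads in at least 4 of 5 samples of each group were tested on counts with edgeR 4.0.16 (limma 3.58.1 as the alternative, with 0.5 added to both counts) in R 4.3.3, with 1 intercept per sample and Benjamini-Hochberg adjustment over 135 CpGs. The fit was tried on simulated counts, drawn independently at each CpG and with no sample set apart in methylation. The trial thus does not cover CpGs that vary together or a sample such as 3H control replicate 1. Amplicons were CpGs joined within 500 bp. Amplicon means and correlations used permutation tests over samples (Python 3.11.15, scipy 1.17.1). Where no CpG passed, the one with the smallest p and the one with the largest difference are named, as are the neighbouring pairs with the highest and lowest r. Other positions named were chosen after their values were seen. Alternatives were coverage minimums of 5, 30 and 100 reads, other summaries, dropping each sample in turn, and a replicate block. Replicate numbers were not used as pairs in the main tests. Samples that share a number did not deviate together in every pair, which cannot decide whether they were paired. The labels do not say what the numbers mark. The CpGs and tests were chosen with earlier results of these data known.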

Additional observations from a re-analysis of the deposited data

Results flagged for a closer look

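Within groups of 5, the sample farthest from the rest was checked for its gap to the nearest other against Dixon's 95% critical value, at each deeply read CpG and for the mean of the 15, in 64 groups. Chance gives about 1 flag in 20 groups, and neighbouring CpGs share reads, so their flags are not independent. There were 12 flags, of which 10 belonged to 3H control replicate 1. These were its mean over the 15 CpGs, at 96.2%, and its values of 97.4% at 39636145, 91.6% at 39636171, 94.8% at 39636210, 95.3% at 39636213, 94.8% at 39636218, 96.3% at 39636223, 97.4% at 39636267, 93.7% at 39636305 and 99.5% at 39636518. At the 6 other CpGs it was also the highest of the 20 samples without passing the critical value. This sample had 191 reads at the median CpG, the fewest of all, and the part of its depth in these values was not tested.

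The other 2 flags were 3H LPS replicate 1 at 39636218, where 79.9% stood above 75.5% to 76.5% in the rest of its group, and 6H control replicate 2 at 39636529, where 89.3% stood below 92.2% to 93.3% in the rest of its group. Among the positions too sparse to be tested, 39636268 had 4 methylated reads of 5, each in a different sample (3H control replicate 2, 6H LPS replicates 3 and 4, and 6H control replicate 2), while 28 of the 31 such positions had none.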

How the results depend on the processing

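Across 353 values recomputed under other settings, those of the neighbouring pairs included, 0 comparisons of the amplicon mean and 0 of the 18 CpGs passed an adjusted p of 0.05. Some of these values could not differ from the main ones. The coverage minimums left the amplicon differences unchanged, since every deeply read CpG had at least 190 reads in each sample. Leaving out a sample of a group not compared left the difference between 2 groups unchanged as well. The LPS minus control difference in the 6H set, 0.190 percentage points, changed sign in 3 ways: it was -2.63 points with every CpG tested, where the sparsely read CpGs enter in some samples and not in others, -0.00178 on the logit scale, and -0.304 to 0.549 points when each sample was left out in turn (-0.174 without 6H LPS replicate 1 and -0.304 without 6H control replicate 2). The 6H minus 3H difference in controls, -2.26 points, was 0.0734 points with medians and -3.00 to 0.0193 points with each sample left out, the last without 3H control replicate 1. The LPS minus control difference in the 3H set kept its direction, between -5.35 and -0.975 points under other settings. It was -0.328 on the logit scale and between -3.32 and -0.298 with each sample left out. The -5.35 came with every CpG tested, where the nearly unmethylated sparse CpGs enter in every 3H sample except 3H control replicate 1. Neighbouring pairs past the threshold numbered 8 to 14 of 14 with each sample left out, 8 without 3H control replicate 1, and 8 with deviations from the group means without that replicate. Replicate numbers were taken from L1 to L5 in the sample titles, and the labels do not say whether these mark a shared origin. Samples with the same number correlated between -0.257 and 0.428 over all tested CpGs in their deviations from the group means. At the deeply read CpGs of the stretch these correlations ran from -0.560 to 0.507, both in pairs with a 3H control. The 3H control means used here include replicate 1, so its values enter the deviations of the other 3H controls. The numbers were not taken as pairs in the main tests, although such correlations cannot decide whether the samples were paired. With a replicate block, the sign-flip p was 0.0625 for LPS minus control in the 3H set (adjusted p = 0.167, exact). The LPS sample was lower than the control of the same number in all 5 pairs, though replicates 3 and 4 were close. Their LPS and control values were 84.11% and 84.13%, and 84.06% and 84.11%. A sign-flip p of 0.0625 is the smallest that 5 pairs allow, so this setting could not pass for a comparison within 1 set. Under the block 0 of the 18 CpGs passed in any comparison in edgeR. Depth limits what can be said of the sparse CpGs 39636122 and 39636133, where 0 methylated reads still allow 0.398% and 0.621% of the few reads called there. At minimums of 30 and 100 reads the first chromosome 5 amplicon dropped out of the adjustment.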
